A study of Mus musculus with 6 samples.

Results

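The 36 genes described here are oligodendrocyte and myelin genes measured by RNA-seq in mouse cerebellum. They were chosen by name, with earlier results of these data known. The 36 gene symbols were looked up in the GENCODE M21 annotation among the 53715 mouse genes of the count table. All 36 were found, and all 36 had enough counts to be among the 16123 genes tested. By the same rule, 5 of them (Pdgfra, Cspg4, Gpr17, Olig1 and Olig2) are genes of oligodendrocyte precursors and were set against the other 31, called mature genes here. Most of the 31 are genes of myelinating oligodendrocytes, but some, such as Sox10 and Enpp6, are also transcribed at earlier stages, so this split does not separate stages cleanly. The study asked how gene expression in the cerebellum differs when dietary manganese (Mn) is low. Cerebella came from 3 male C57BL/6 mice on a low-Mn diet, given in the labels as 0 ppm Mn, and from 3 on a normal-Mn diet with 35 ppm Mn, each diet fed for 2 weeks. The labels name no engineered allele and no further treatment, and 1 library was made per mouse. The mice were 4 weeks old at purchase, and the labels call them adult.

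The libraries held polyadenylated RNA, and the deposited values are expected counts, which are estimates of the number of reads from each gene. They summed to between 14548336 and 17124327 per low-Mn library and to between 18446701 and 21277469 per normal-Mn library, so that every low-Mn library was shallower than every normal-Mn library. The least abundant of the 36 genes, Cspg4, had 141 counts in its lowest library. The methods describe the mice as biological replicates, and a figure legend calls the samples technical triplicates. In the second case the p-values would reflect the spread between libraries, not between mice. In the count table the low-Mn columns carry a number alone, and they were assigned as the 3 columns that do not name the normal-Mn diet. Levels are given as CPM, read counts scaled to a common library size with TMM factors. A gene was called changed at an adjusted p under 0.05 from the quasi-likelihood test of edgeR, with Benjamini-Hochberg adjustment. Fold changes are low-Mn over normal-Mn on the log2 scale.

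Oligodendrocytes wrap axons of the central nervous system in myelin, a stack of membrane that speeds conduction and is rich in cholesterol, galactolipids and a small set of abundant proteins. They arise from dividing precursors, which carry the receptor for platelet-derived growth factor and the proteoglycan NG2. The transcription factors Olig2, Sox10 and Myrf drive the passage from precursor to myelinating cell. In the cerebellum most myelin lies in the white matter, around the axons of Purkinje neurons and of incoming fibres.

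Most oligodendrocyte and myelin genes were slightly lower in low-Mn cerebella, and 1 of them passed the test. Gjc3, which encodes a connexin of oligodendrocytes, fell by 15.4%, or by 0.24 on the log2 scale, and none of the 36 rose. Among all genes tested, 0.595% changed, 0.18% by a fall and 0.416% by a rise. The fitted log2 fold change was negative for 34 of the 36 genes, against 50.8% of all genes tested, and positive for Cldn11 and Gpr17. The median over the 36 genes was -0.13, or -8.41%, and the median over all genes tested was -0.003. The fold changes were small, between -0.42 for Opalin and 0.05 for Gpr17, and 30 of the 36 genes were within 15% of their normal-Mn level. Leaving out each library in turn gave between 33 and 35 negative fold changes. Other ways of filtering and testing moved the number of genes that fell: 10 of the 36 without a filter on low counts, where 0.764% of all genes fell, 4 with a stricter filter, where 0.3% fell, and 0 with limma-voom. DESeq2 gave an adjusted p to 27 of the 36 genes, of which 5 fell, and to 7144 genes in all, of which 0.7% fell.

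In 19 of the 36 genes (52.8%), every low-Mn library lay below every normal-Mn library, and in none did every low-Mn library lie above. Among all genes tested, 8.32% were below without overlap and 8.79% above. The libraries overlapped for the other 17 genes. An unadjusted p under 0.05 was reached by 21 of the 36 genes, all of them with a negative fold change, and by 12.1% of all genes tested, or 5.58% with a negative fold change. These genes are not independent of each other, since many are transcribed in the same cells, and in RNA from whole tissue fewer cells of a type and less RNA per cell cannot be told apart. The list was also drawn up with earlier results of these data known, so the shares above only describe it.

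**Figure D1:**
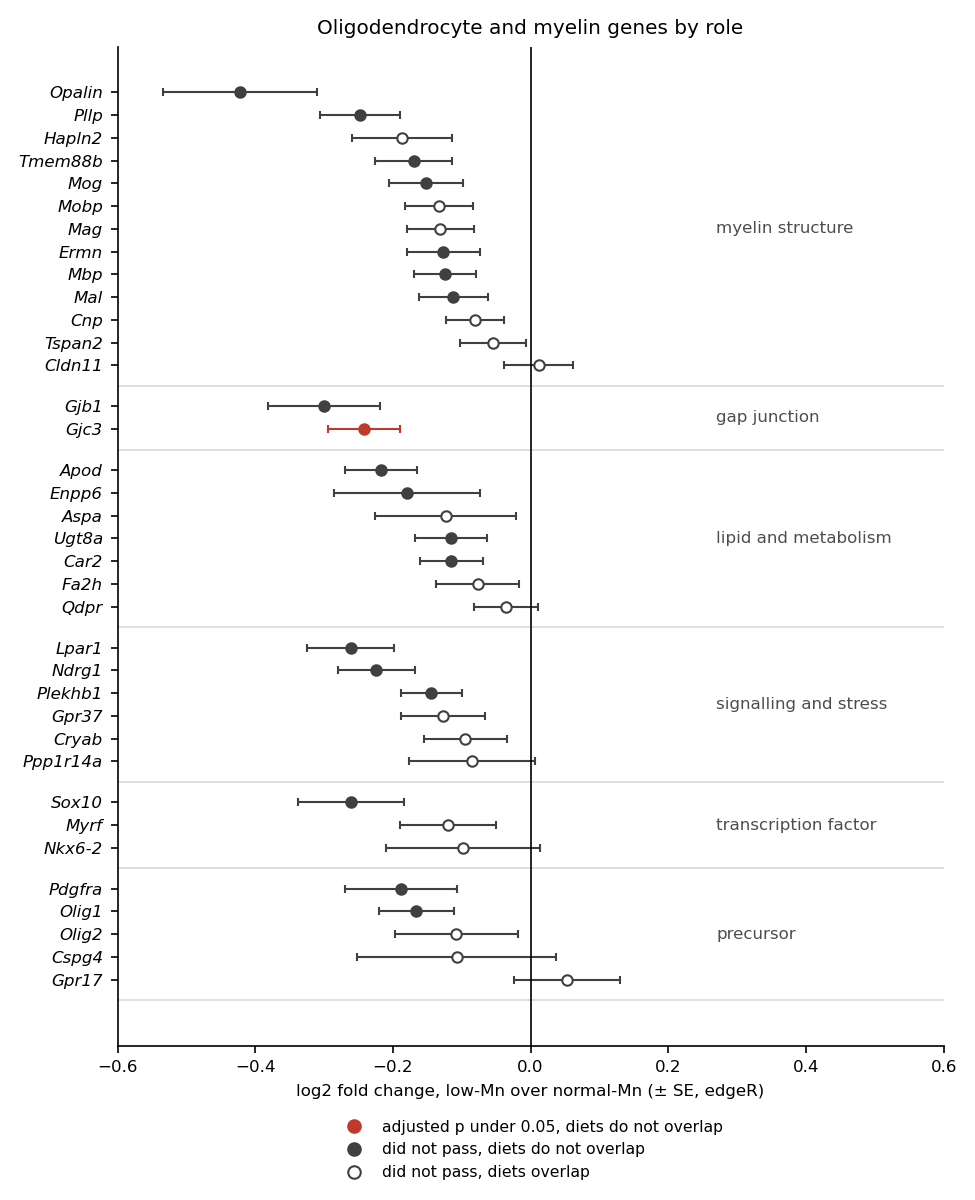
Log2 fold change of each of the 36 genes, low-Mn over normal-Mn, with its standard error (horizontal axis), grouped by role (vertical axis). The single red point is Gjc3 at -0.24, the only gene of the 36 past the threshold. Filled points mark the 19 genes whose diets did not overlap, and 34 of the 36 points lie left of 0.

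Both gap junction genes were lower in every low-Mn library than in any normal-Mn library, and 1 of them passed the test. They encode connexins, which form channels between oligodendrocytes and astrocytes or between layers of 1 sheath. Gjc3 (ENSMUSG00000056966.7, connexin 29, found in the membrane next to the axon) lies at chr5:137953461-137963098 on the minus strand of GRCm38. Its level was 87.9, 88.9 and 92.1 CPM in low-Mn replicates 1 to 3, against 104, 112 and 102 CPM in normal-Mn replicates 1 to 3. The 3 low-Mn libraries were close together and all below the normal-Mn libraries, of which replicate 2 was the highest. The log2 fold change was -0.24 ± 0.05 (SE, n = 3 per diet), with an adjusted p of 0.0403 from edgeR. This call was lost when any low-Mn library or normal-Mn replicate 1 or 2 was left out, with an adjusted p of 0.153, 0.129 and 0.06 without low-Mn replicates 1, 2 and 3 and of 0.0696 and 0.167 without normal-Mn replicates 1 and 2. It held without normal-Mn replicate 3 (adjusted p = 0.0493). Over all alternatives run, the adjusted p of Gjc3 ranged from 0.00133 to 0.167, and its fold change stayed between -0.27 and -0.20.

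Gjb1 (connexin 32, a channel between layers of the sheath) had 21.6, 21.9 and 22.1 CPM in low-Mn replicates 1 to 3, against 25.8, 27.9 and 27.0 CPM in normal-Mn replicates 1 to 3. Its diets did not overlap either, and its low-Mn libraries differed by less than 1 CPM. The log2 fold change was -0.30 ± 0.08 (SE, n = 3 per diet), and the adjusted p of 0.103 did not pass.

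Promoter windows of RefSeq on GRCm38.p6, which run from 250 bases before to 50 bases after a gene's start, were matched by symbol for 27 of the 36 genes, with 36 windows in all. Windows of 3 genes are printed here: Gjc3 because it passed the test, Gjb1 as the other connexin (the last of its 4 windows, 1 of the 2 that hold a word), and Opalin because its fold change was the most negative of the 36. Capitals mark words searched on both strands: ACAAAG and AACAAT for SOX factors, CTGGCAC and CTGGTAC for Myrf, and CAGCTG as an E-box, the class of site bound by Olig factors. These words do not overlap each other in the printed windows. The Gjc3 window is chr5:137963049-137963348 on the minus strand, the Gjb1 window chrX:101383482-101383781 on the plus strand, and the Opalin window chr19:41077064-41077363 on the minus strand.
Gjc3: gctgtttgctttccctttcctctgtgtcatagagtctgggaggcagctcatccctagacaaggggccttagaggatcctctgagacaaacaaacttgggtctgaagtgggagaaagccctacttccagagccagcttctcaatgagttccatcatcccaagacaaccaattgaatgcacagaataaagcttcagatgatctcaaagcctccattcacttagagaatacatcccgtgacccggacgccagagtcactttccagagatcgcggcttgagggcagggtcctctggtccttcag
Gjb1: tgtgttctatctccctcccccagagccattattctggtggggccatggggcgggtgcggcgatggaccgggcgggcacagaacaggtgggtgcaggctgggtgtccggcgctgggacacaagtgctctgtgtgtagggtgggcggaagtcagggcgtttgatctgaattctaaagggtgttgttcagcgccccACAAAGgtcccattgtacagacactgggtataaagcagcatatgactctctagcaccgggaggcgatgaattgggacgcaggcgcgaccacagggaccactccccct
Opalin: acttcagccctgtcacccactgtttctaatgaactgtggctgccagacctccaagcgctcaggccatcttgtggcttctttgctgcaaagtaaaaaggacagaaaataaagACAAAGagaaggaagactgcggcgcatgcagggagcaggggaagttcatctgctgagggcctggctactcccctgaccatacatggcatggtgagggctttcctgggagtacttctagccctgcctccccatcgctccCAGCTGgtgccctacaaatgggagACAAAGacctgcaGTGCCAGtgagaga
The Gjc3 window held none of the 5 words. Counted from 1 at the 5′ end, the Gjb1 window held ACAAAG at base 194, and the Opalin window held 4 matches, ACAAAG at bases 112 and 274, CAGCTG at base 250 and CTGGCAC, read on the other strand, at base 287. Across the 36 windows, ACAAAG was in 33.3%, against 18.7% of all 32817 RefSeq windows of the same length, and AACAAT was in 22.2%, against 10.7%. CTGGCAC was in 16.7% of the 36 windows and 5.0% of all windows, CTGGTAC in 2.8% and 2.2%, and CAGCTG in 11.1% and 16.3%. Some windows of 1 gene overlap and share a match, and a match in letters is a description, not a bound site.

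The 13 genes of myelin structure had a median log2 fold change of -0.13, and 7 of them were below without overlap. None passed the test. Mbp, which holds the inner faces of compact myelin together, had 3382, 3415 and 3519 CPM in low-Mn replicates 1 to 3, against 3544, 3975 and 3722 CPM in normal-Mn replicates 1 to 3. Its diets did not overlap, but low-Mn replicate 3 and normal-Mn replicate 1 lay close to each other. Mbp had a log2 fold change of -0.12 ± 0.04 (SE, n = 3 per diet, adjusted p = 0.252). Mobp, a basic protein of the same face of the membrane, had 899, 884 and 957 CPM in low-Mn replicates 1 to 3, against 930, 1063 and 1012 CPM in normal-Mn replicates 1 to 3, and its diets overlapped through normal-Mn replicate 1. Its log2 fold change was -0.13 ± 0.05 (SE, n = 3 per diet, adjusted p = 0.262).

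Opalin, a transmembrane glycoprotein of oligodendrocytes, had 13.7, 10.7 and 12.9 CPM in low-Mn replicates 1 to 3, against 16.4, 17.0 and 16.8 CPM in normal-Mn replicates 1 to 3. Its normal-Mn libraries were nearly equal, while low-Mn replicate 2 was the lowest of the 6 libraries, and the diets did not overlap. Opalin had a log2 fold change of -0.42 ± 0.11 (SE, n = 3 per diet, adjusted p = 0.0967). Pllp, or plasmolipin, a proteolipid of the sheath, had 52.3, 53.5 and 52.2 CPM in low-Mn replicates 1 to 3, against 61.6, 60.5 and 65.5 CPM in normal-Mn replicates 1 to 3. The diets did not overlap, and the low-Mn libraries were nearly equal. Pllp had a log2 fold change of -0.25 ± 0.06 and missed the threshold narrowly (SE, n = 3 per diet, adjusted p = 0.0538), with an adjusted p between 0.00995 and 0.185 over all alternatives. Its exons overlap the opposite-strand gene Gm45767 over 54.2% of their length, so that counts could be split between these genes and its level is uncertain.

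Of the genes for the surfaces of the sheath, Mag and Mog had fold changes near the median of the 36, and Cldn11 did not. Mag, the adhesion receptor of the membrane facing the axon, had 203, 211 and 214 CPM in low-Mn replicates 1 to 3, against 214, 237 and 237 CPM in normal-Mn replicates 1 to 3, with low-Mn replicate 3 and normal-Mn replicate 1 almost equal. Mog, an immunoglobulin-like protein of the outer surface, had 70.8, 72.2 and 77.5 CPM in low-Mn replicates 1 to 3, against 79.98, 83.0 and 81.9 CPM in normal-Mn replicates 1 to 3, and its diets did not overlap. The log2 fold changes were -0.13 for Mag and -0.15 for Mog (adjusted p = 0.262 and 0.240). Cldn11, the claudin of the tight junctions between lamellae, was the only mature gene without a negative fold change (0.01 ± 0.05, SE, n = 3 per diet), with 156, 152 and 153 CPM in low-Mn replicates 1 to 3, against 143, 162 and 151 CPM in normal-Mn replicates 1 to 3. Its low-Mn libraries lay inside the range of the normal-Mn libraries.

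The other structural genes were below without overlap for Mal, a proteolipid of membrane sorting (log2 fold change -0.11), Ermn, an actin-binding protein of late differentiation (-0.13), and Tmem88b, a membrane protein (-0.17). The libraries overlapped for Hapln2, the link protein of the matrix at nodes of Ranvier (-0.19), Cnp, the phosphodiesterase that keeps channels of cytoplasm in the sheath open (-0.08), and the tetraspanin Tspan2 (-0.06). Their adjusted p-values ran from 0.201 to 0.707.

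Of the 7 genes of lipids and metabolism, 4 were below without overlap, none passed the test, and the median log2 fold change was -0.12. Apod, or apolipoprotein D, a lipocalin that carries small lipids, had 232, 208 and 217 CPM in low-Mn replicates 1 to 3, against 236, 261 and 267 CPM in normal-Mn replicates 1 to 3. Low-Mn replicate 1 and normal-Mn replicate 1 were almost equal, and the diets were otherwise well apart. Apod had a log2 fold change of -0.22 ± 0.05 (SE, n = 3 per diet, adjusted p = 0.0647). Without normal-Mn replicate 1 its adjusted p was 0.0307, which passed, and over all alternatives it ranged from 0.000417 to 0.253. The enzymes were closer to their normal-Mn level: Ugt8a, which makes galactosylceramide, had a log2 fold change of -0.12, Car2, a cytosolic carbonic anhydrase, -0.12 and Enpp6, a choline phosphodiesterase of newly forming oligodendrocytes, -0.18, all 3 below without overlap. Aspa, which releases acetate from N-acetylaspartate (-0.12), Fa2h, which hydroxylates the fatty acids of myelin lipids (-0.08), and Qdpr, which recycles tetrahydrobiopterin (-0.04), overlapped between diets. Aspa had 22.4, 20.5 and 27.6 CPM in low-Mn replicates 1 to 3, against 23.2, 27.2 and 26.6 CPM in normal-Mn replicates 1 to 3, and its highest library was on the low-Mn diet.

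Among the 6 genes of signalling and stress, 3 were below without overlap, and the median log2 fold change was -0.14. Lpar1, a receptor for lysophosphatidic acid, had 49.3, 47.5 and 52.2 CPM in low-Mn replicates 1 to 3, against 56.4, 63.4 and 58.9 CPM in normal-Mn replicates 1 to 3, with a gap between the diets. Its log2 fold change was -0.26 ± 0.06 (SE, n = 3 per diet, adjusted p = 0.0647). Ndrg1, a protein of membrane traffic that is also needed by Schwann cells, had 99.7, 103 and 106 CPM in low-Mn replicates 1 to 3, against 117, 131 and 112 CPM in normal-Mn replicates 1 to 3, and the diets did not overlap, with normal-Mn replicate 2 the highest. The log2 fold change of Ndrg1 was -0.22 ± 0.06 (SE, n = 3 per diet, adjusted p = 0.0761). Plekhb1, a PH-domain protein, was the third of these genes without overlap (log2 fold change -0.14, adjusted p = 0.178). The orphan receptor Gpr37 (-0.13), the small heat shock protein Cryab (-0.10) and the phosphatase inhibitor Ppp1r14a (-0.09) overlapped between diets.

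The transcription factors of the mature group were Sox10, Myrf and Nkx6-2. Sox10, which marks the whole lineage, had 32.02, 36.9 and 38.4 CPM in low-Mn replicates 1 to 3, against 42.1, 40.5 and 46.1 CPM in normal-Mn replicates 1 to 3. Its diets did not overlap, and low-Mn replicate 1 was the lowest library. Sox10 had a log2 fold change of -0.26 ± 0.08 (SE, n = 3 per diet, adjusted p = 0.142). Myrf, which switches on myelin genes, had 51.8, 60.1 and 62.4 CPM in low-Mn replicates 1 to 3, against 58.9, 62.9 and 67.6 CPM in normal-Mn replicates 1 to 3, and Nkx6-2, a homeodomain factor, had 14.8, 14.7 and 17.5 CPM in low-Mn replicates 1 to 3, against 14.8, 17.2 and 18.4 CPM in normal-Mn replicates 1 to 3. Both overlapped between diets, with log2 fold changes of -0.12 and -0.10 (adjusted p = 0.519 and 0.790).

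**Figure D2:**
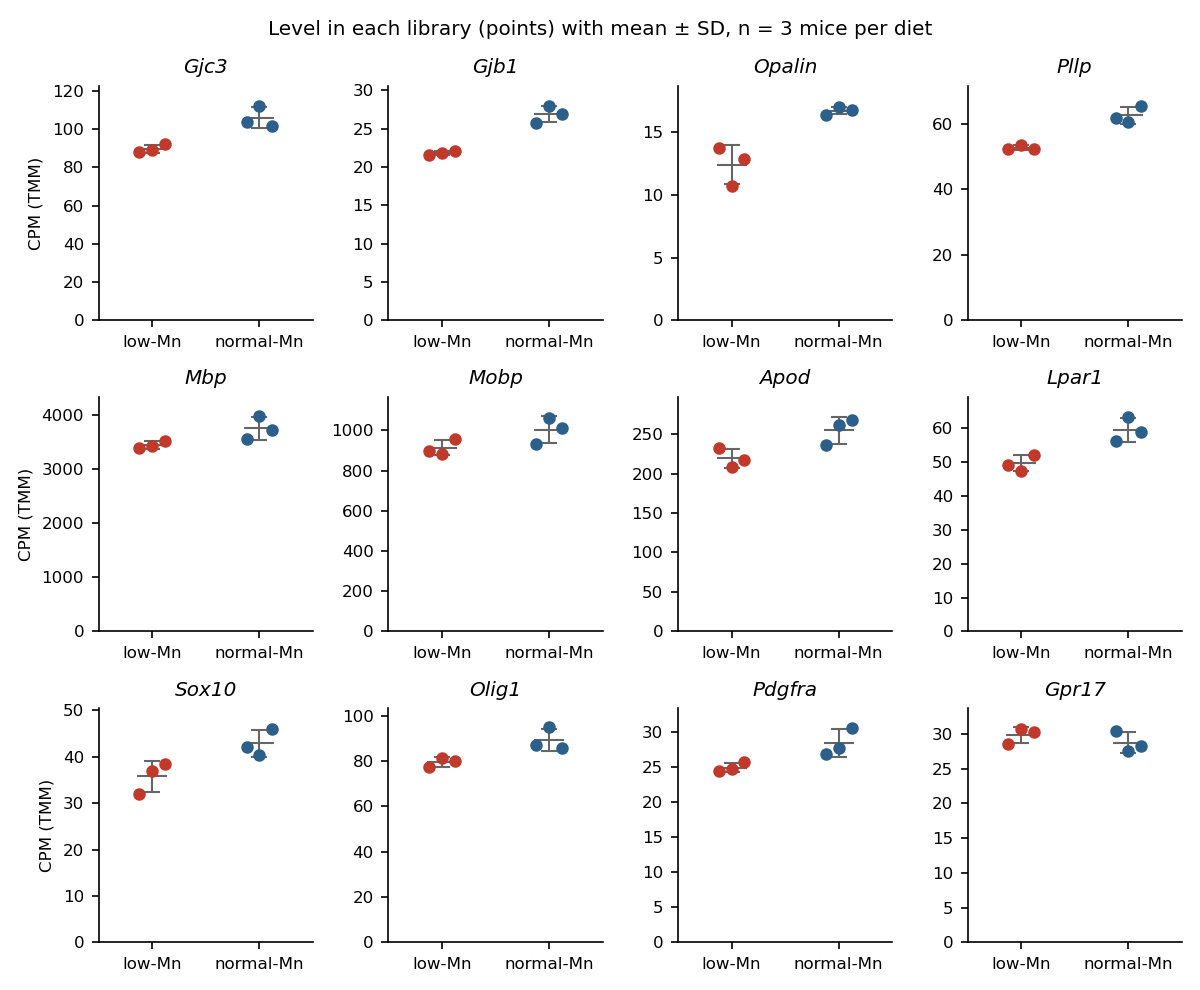
Level of 12 of the genes in each library (points) in TMM-scaled CPM (vertical axes, starting at 0), with mean and SD over 3 mice per diet. Low-Mn libraries are red and normal-Mn libraries blue. Gjc3 was at 87.9 to 92.1 CPM in low-Mn libraries and 102 to 112 CPM in normal-Mn libraries, while the libraries of Mobp and Gpr17 overlapped.

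The 5 precursor genes had fold changes of a size like those of the mature genes. Their median log2 fold change was -0.11, against -0.13 for the 31 mature genes, and 2 of 5 were below without overlap, against 17 of 31. None of the 5 passed the test. Pdgfra, the receptor for the growth factor that makes precursors divide, had 24.4, 24.7 and 25.7 CPM in low-Mn replicates 1 to 3, against 26.9, 27.7 and 30.6 CPM in normal-Mn replicates 1 to 3. Olig1, a basic helix-loop-helix factor that mature cells also keep, had 77.1, 81.4 and 80.1 CPM in low-Mn replicates 1 to 3, against 87.0, 94.8 and 85.7 CPM in normal-Mn replicates 1 to 3. Both genes were lower in every low-Mn library, with log2 fold changes of -0.19 ± 0.08 for Pdgfra and -0.17 ± 0.05 for Olig1 (SE, n = 3 per diet, adjusted p = 0.348 and 0.2).

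The other precursor genes overlapped between diets. Olig2, the factor that specifies the lineage, had 20.9, 21.8 and 20.9 CPM in low-Mn replicates 1 to 3, against 20.97, 23.3 and 24.3 CPM in normal-Mn replicates 1 to 3, and Cspg4, the NG2 proteoglycan that pericytes also make, had 8.20, 11.3 and 10.1 CPM in low-Mn replicates 1 to 3, against 10.4, 12.04 and 9.21 CPM in normal-Mn replicates 1 to 3. Their log2 fold changes were -0.11 ± 0.09 and -0.11 ± 0.14 (SE, n = 3 per diet), and that of Cspg4 was 0.01 without low-Mn replicate 1. Gpr17, a receptor of committed precursors, had 28.5, 30.7 and 30.3 CPM in low-Mn replicates 1 to 3, against 30.5, 27.5 and 28.2 CPM in normal-Mn replicates 1 to 3, with a log2 fold change of 0.05 ± 0.08 (SE, n = 3 per diet, adjusted p = 0.85). The precursor median rests on few genes, and without low-Mn replicate 2 or normal-Mn replicate 1 it was -0.18 or -0.17.

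Per-library medians were set side by side for the mature and the precursor genes. The median log2 deviation of the mature genes from their normal-Mn mean was -0.17, -0.14 and -0.10 in low-Mn replicates 1 to 3, against -0.06, 0.06 and 0.01 in normal-Mn replicates 1 to 3. That of the precursor genes was -0.21, -0.07 and -0.13 in low-Mn replicates 1 to 3, against -0.03, 0.03 and -0.03 in normal-Mn replicates 1 to 3. The difference between these medians, mature minus precursor, was 0.04, -0.08 and 0.03 in low-Mn replicates 1 to 3, against -0.02, 0.03 and 0.03 in normal-Mn replicates 1 to 3, so the range of the low-Mn libraries enclosed that of the normal-Mn libraries. The widest gap between the medians was in low-Mn replicate 2, where the mature genes were lower. Of the normal-Mn libraries, replicate 1 was the lowest for 23 of the 36 genes, replicate 2 for 3 and replicate 3 for 10. Normal-Mn replicate 1 lay below the highest low-Mn library for 16 of the 17 genes that overlapped. Of the low-Mn libraries, replicate 1 was the lowest for 19 genes, replicate 2 for 12 and replicate 3 for 5.

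Summed over the 36 genes, the level was 7656, 7658 and 7902 CPM in low-Mn replicates 1 to 3, against 8030, 8872 and 8442 CPM in normal-Mn replicates 1 to 3. The means were 7739 ± 142 CPM in low-Mn libraries and 8448 ± 421 CPM in normal-Mn libraries (SD, n = 3 each), a ratio of 0.916. Mbp alone made up 44.4% of this sum, and without it the ratio was 0.915. The 5 precursor genes summed to 165 ± 5.58 CPM in low-Mn libraries and 180 ± 4.97 CPM in normal-Mn libraries (SD, n = 3 each), a ratio of 0.920. When all libraries were thinned to the same depth, the median log2 fold change of the 36 genes was -0.13 and 34 were again negative.

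Compared per length, as TPM (counts divided by exonic length and scaled to a common sum), the 36 genes covered a wide range of levels. Mbp was highest with 1401 ± 28.0 TPM in low-Mn libraries and 1504 ± 37.8 TPM in normal-Mn libraries (SD, n = 3 each). Mobp, Cnp, Plekhb1 and Qdpr followed, with 497, 472, 393 and 375 TPM in normal-Mn libraries, and Cspg4 was lowest with 2.85 TPM in low-Mn libraries and 3.01 TPM in normal-Mn libraries. Between neighbours in this order, the ranges of the normal-Mn libraries were apart for 20 of 35 pairs and overlapped for 15, among them Mobp and Cnp, Plekhb1 and Qdpr, and Tmem88b and Gjc3. Among precursor genes, Olig1 had the highest level per length with 127 TPM in low-Mn libraries and 140 TPM in normal-Mn libraries, and Pdgfra had 8.57 TPM in low-Mn libraries and 9.66 TPM in normal-Mn libraries. Of the 36 genes, 4 share sequence with or overlap an opposite-strand gene over at least 10% of their length (Pllp, Qdpr, Cryab and Nkx6-2), and their levels are uncertain. Without them, 18 of 32 genes were below without overlap. The median log2 fold change of the 23 mature genes left without 8 genes that other cerebellar cells also express (Apod, Car2, Cryab, Ndrg1, Qdpr, Gpr37, Plekhb1 and Lpar1) was -0.13, and 12 of these were below without overlap.

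Other genes of the lineage and of myelin lipids, taken from lists of general knowledge, had medians nearer to 0. Of 35 other genes of myelinating oligodendrocytes, none passed the test, 5 were below without overlap, and the median log2 fold change was -0.08. Evi2a, which encodes a membrane protein, had 27.1, 26.9 and 26.2 CPM in low-Mn replicates 1 to 3, against 30.1, 34.6 and 34.3 CPM in normal-Mn replicates 1 to 3, and Prr18 had 56.9, 62.4 and 63.5 CPM in low-Mn replicates 1 to 3, against 69.9, 77.1 and 67.9 CPM in normal-Mn replicates 1 to 3. Their log2 fold changes were -0.31 and -0.24 (adjusted p = 0.0871 and 0.0969), and neither overlapped between diets. Of 16 other precursor genes, 1 was below without overlap and the median was -0.03. The gene was Ptprz1, a receptor phosphatase (log2 fold change -0.11, adjusted p = 0.299). Of 12 tested genes of newly formed oligodendrocytes, 2 were below without overlap and the median was -0.07. Nkx2-2, a homeodomain factor that acts early in differentiation, had 10.6, 10.6 and 10.5 CPM in low-Mn replicates 1 to 3, against 15.8, 12.95 and 14.04 CPM in normal-Mn replicates 1 to 3. It had the widest fitted decrease of that list, at -0.43 ± 0.12 (SE, n = 3 per diet, adjusted p = 0.103).

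Genes that make the lipids of the sheath had medians near 0. Of 19 genes of sphingolipid synthesis and turnover, none passed the test, 5 were below and 1 above without overlap, and the median was -0.01. Cers2, which makes ceramides with very long chains, had a log2 fold change of -0.17, and the elongase Elovl7 had -0.25 (adjusted p = 0.222 and 0.275). Of 22 genes of the cholesterol synthesis list, 4 were below and 7 above without overlap, and the median was 0.01. Partners of myelin on the axon, at nodes and paranodes, had a median of 0.06 over 14 genes, with 2 above and none below without overlap, and 21 genes of signals that control myelination had a median of -0.03, with 2 below and none passing the test.

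**Figure D3:**
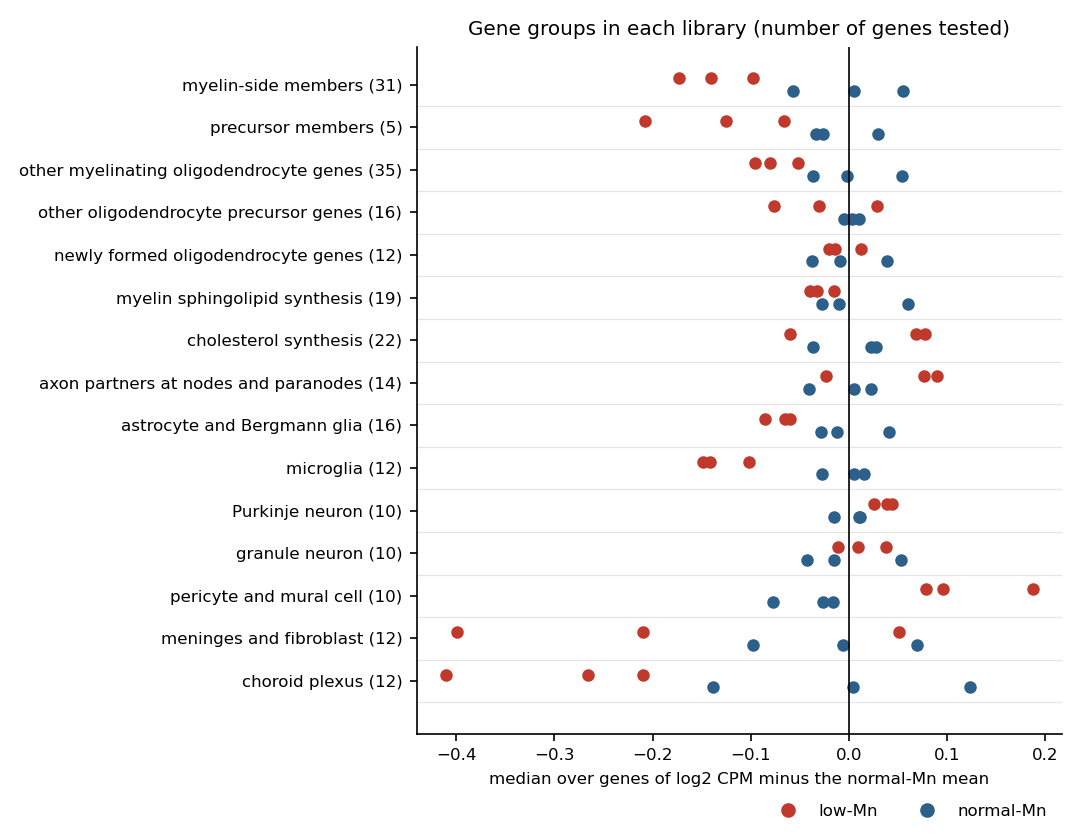
Median over the genes of each list of the log2 CPM minus its normal-Mn mean (horizontal axis), for each library (points, low-Mn in red and normal-Mn in blue) and list (vertical axis, with the number of genes tested). The 3 low-Mn libraries of the 31 mature genes sit between -0.17 and -0.10, left of the normal-Mn libraries between -0.06 and 0.06, and those of cholesterol synthesis overlap.

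Some markers of other cells fell as well. Choroid plexus markers had a median log2 fold change of -0.31, with 8 of 12 below without overlap and 4 that fell (Kl, Ace, Mfrp and Sostdc1), and summed to between 2344 and 2891 CPM in low-Mn libraries and between 2718 and 3284 CPM in normal-Mn libraries. Markers of meninges and fibroblasts had a median of -0.19, with 5 of 12 below and 2 that fell (Fn1 and Igf2), and summed to between 1474 and 1774 CPM in low-Mn libraries and between 1611 and 1815 CPM in normal-Mn libraries. In each list 11 of 12 markers had a negative fold change, and none was at 0. Kl kept its call with each library left out, Ace and Fn1 lost theirs without low-Mn replicate 2 (adjusted p = 0.0755 and 0.0695), and Mfrp lost its call without replicate 2 or 3 of either diet (adjusted p up to 0.129). Sostdc1 and Igf2 passed when normal-Mn replicate 3 was left out and did not when any other library was (adjusted p up to 0.147 and 0.1998). These sums overlapped between diets, but each rests mostly on 1 abundant marker. Without that marker, choroid plexus markers summed to between 334 and 376 CPM in low-Mn libraries and between 422 and 504 CPM in normal-Mn libraries, and meninges and fibroblast markers to between 338 and 399 CPM in low-Mn libraries and between 413 and 471 CPM in normal-Mn libraries, with no overlap in either list. The per-library medians of the choroid plexus list did not overlap either, at -0.21, -0.41 and -0.27 in low-Mn replicates 1 to 3, against 0.004, 0.12 and -0.14 in normal-Mn replicates 1 to 3. Those of the meninges and fibroblast list did overlap, at 0.051, -0.399 and -0.21 in low-Mn replicates 1 to 3. In normal-Mn replicates 1 to 3 they were -0.006, 0.069 and -0.098.

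The lists of other glia had smaller negative medians than the 36 genes, and their sums did not overlap between diets. Astrocyte and Bergmann glia markers had a median of -0.07, with 5 of 16 below without overlap and sums of 9293 to 9565 CPM in low-Mn libraries and 9665 to 10040 CPM in normal-Mn libraries. Microglia markers had a median of -0.10, with 3 of 12 below and sums of 189 to 198 CPM in low-Mn libraries and 209 to 216 CPM in normal-Mn libraries. Fold changes were negative for 12 of the 16 astrocyte and Bergmann glia markers and 11 of the 12 microglia markers. Per-library medians of the microglia list were -0.142, -0.149 and -0.102 in low-Mn replicates 1 to 3. Those of the 36 genes were close, at -0.173, -0.134 and -0.104. No gene of either glia list passed the test or was at 0. Purkinje and granule neuron markers had medians of 0.04 and 0.01, with 1 of 10 below and 2 of 10 above in each list. Pericyte and mural cell markers, which bear on Cspg4, had a median of 0.18, with 1 below and 1 above of 10. Their fold changes were positive for 7 of 10 and negative for 3. Their per-library medians were 0.187, 0.096 and 0.078 in low-Mn replicates 1 to 3. In normal-Mn replicates 1 to 3 they were -0.026, -0.016 and -0.077, without overlap. The sums of the pericyte and mural cell list did overlap, at 196 to 219 CPM in low-Mn libraries and 200 to 211 CPM in normal-Mn libraries. Without the most abundant marker of that list, the sums were 115 to 129 CPM in low-Mn libraries. The matching normal-Mn sums were 122 to 140 CPM, so that the ranges overlapped with the low-Mn range the lower. The part of these cells in the values of the 36 genes was not tested.

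The labels name cerebellum, and some markers of peripheral myelin and of brain stem were at or near 0. Of 12 genes of peripheral myelin and Schwann cells, 6 were tested. Egr2 stayed at or under 0.206 CPM in every library and Pmp2 and Foxd3 were at 0, but Prx reached 1.685 CPM and Pmp22 45.6 CPM. The list summed to between 90.9 and 97.0 CPM in low-Mn libraries and between 102 and 109 CPM in normal-Mn libraries. The 6 tested genes of this list all had a negative fold change, with a median of -0.21, none passed the test and none was below without overlap. Without its most abundant gene the list summed to between 49.3 and 57.2 CPM in low-Mn libraries and between 56.7 and 67.2 CPM in normal-Mn libraries, which overlap. Of 12 genes of brain stem neurons, 8 were under 1 CPM in all libraries, Chat among them at 0.163 CPM or less, and the list summed to between 32.8 and 39.8 CPM in low-Mn libraries and between 32.1 and 36.1 CPM in normal-Mn libraries, most of it from Slc6a5, which Golgi neurons of the cerebellum also express. Prph and Tph2 reached 1.03 and 1.084 CPM in their highest libraries. How much white matter each dissection held was not measured.

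**Figure D4:**
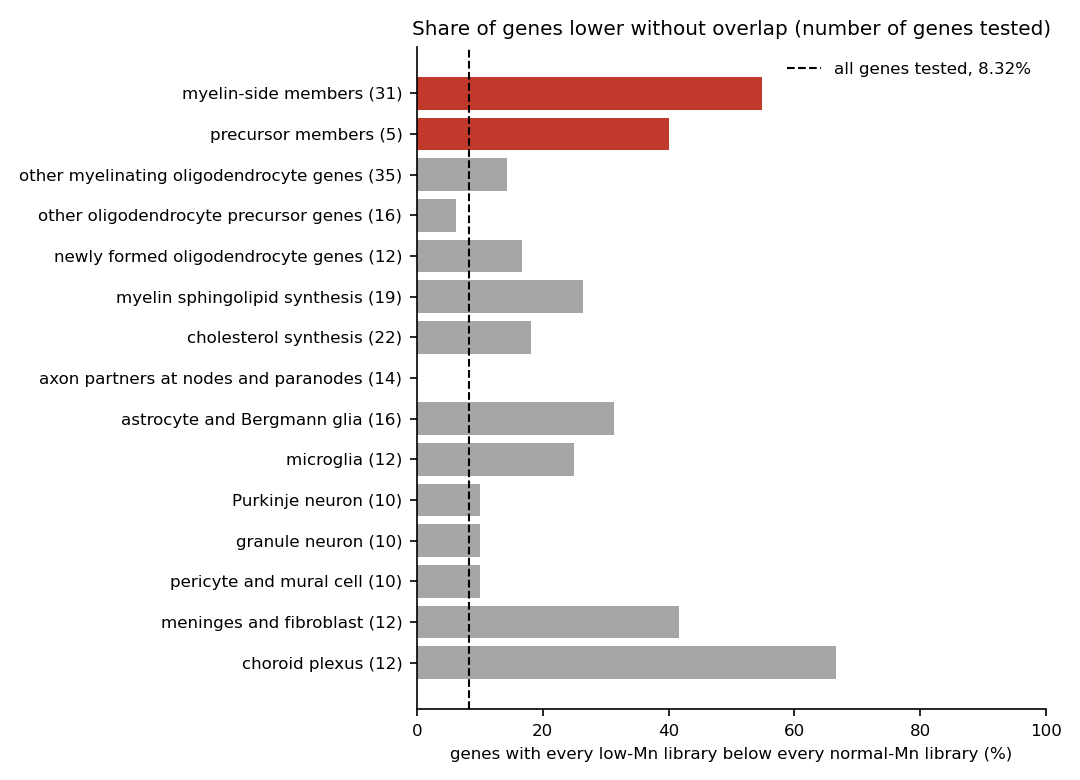
Share of the tested genes of each list for which every low-Mn library lay below every normal-Mn library (horizontal axis, percent, starting at 0; vertical axis, lists with the number of genes tested). The mature and precursor genes (red) reached 54.8% and 40.0%, choroid plexus markers 66.7%, and the dashed line marks 8.32% of all genes tested.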

How the data were processed

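Polyadenylated RNA from 6 cerebella was sequenced on the NovaSeq platform, and samples were grouped by the diet in the labels. The submitters' processing notes name STAR, RSEM, FastQC, DESeq2 and mm10. No source used here gives their versions, the annotation release or the strand setting of the counting. Expected counts for each gene were deposited without normalization, of which 7.13% to 7.75% per library were not whole. Without a stated strand setting, reads of overlapping genes cannot be told apart. The 92 spike-in entries were 0 and left out. Depth ran from 14548336 to 21277469 counts, and precision beyond counting error rests on 3 libraries per diet.

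Counts were rounded, filtered with filterByExpr (minimum count 10, minimum total 15), scaled by TMM and tested with glmQLFit and glmQLFTest of edgeR 4.0.16 in R 4.3.3 at a threshold of 0.05 after Benjamini-Hochberg adjustment over all 16123 genes kept. The tests use GENCODE M21 names on GRCm38, and TPM uses its exonic lengths. Sharing of sequence is the percent of exonic 50-mers found in another gene. The members and lists were chosen with earlier results of these data known. Named are all 36 members and, from each list, genes past the threshold or at most the 2 with the smallest p. No test was made over the members or a list. The results of 2 list genes are not reported here. Tested on simulated counts of the diet comparison over 15965 genes, the fit recovered 94.9% of genes changed 2-fold and 79.8% of those changed 1.5-fold, and 8 of 181 calls were false. Every simulated gene was given the same spread beyond counting error, which real genes do not share, so these rates may be too favourable. Every member's change was smaller than 1.5-fold, and changes of that size were not simulated.

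Alternatives were RLE and upper quartile factors, no filter, a stricter filter (mean of 100 counts), unrounded counts, limma-voom (limma 3.58.1), DESeq2 1.42.0, thinning to equal depth, removal of a gene length trend (spline with 4 degrees of freedom), the replicate number as a block, and each library left out in turn. The count of negative fold changes under each, and the sums of marker lists without their most abundant marker, were added after seeing the data.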

Additional observations from a re-analysis of the deposited data

How the results depend on the processing

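Over 17 alternatives and 36 genes, 576 of 603 fits with an adjusted p kept the direction and the side of the threshold, 19 passed it newly, 6 no longer passed it and 2 reversed: Cspg4, at 0.014 without low-Mn replicate 1 and as low as -0.216 without low-Mn replicate 2, and Cldn11, at -0.031 without normal-Mn replicate 1 and up to 0.06 without normal-Mn replicate 2. Genes changed by diet numbered 96 (67 higher, 29 lower), 424 (218 higher, 206 lower) without a filter, 63 with limma-voom, 145 with the replicate block and the gene length trend removed, and 37 to 93 with libraries left out. Upper quartile scaling gave 53 higher and 37 lower, and equal depth gave 89 genes, 63 higher and 26 lower. Members that passed numbered 1 (Gjc3), 2 with upper quartile factors (Pllp and Gjc3), 10 without a filter, where 0.764% of genes were called lower, 4 with the stricter filter (Pllp, Gjc3, Apod and Lpar1, beside 0.3% of genes), 5 of the 27 that had an adjusted p with DESeq2 (Pllp, Gjc3, Apod, Ndrg1 and Plekhb1, beside 0.7% of genes with an adjusted p; the other 9 had none), 2 at equal depth (Pllp and Gjc3), 0 with limma-voom (Gjc3 at an adjusted p of 0.0548), and 0 to 1 with libraries left out: 0 without normal-Mn replicate 2 or any low-Mn library, Apod alone without normal-Mn replicate 1, and Gjc3 alone without normal-Mn replicate 3. Among the 36 members, 21 had an unadjusted p under 0.05 in the edgeR fit. The median of the members ranged from -0.17 to -0.11 with libraries left out, that of the mature genes from -0.17 to -0.11 and that of the precursor genes from -0.182 to -0.094. The replicate numbers did not pair the diets (correlations of same-numbered deviations 0.03, -0.02 and 0.04), and the replicate block gave 128 genes and 1 member, Gjc3, with an adjusted p of 0.0338. The causes of these shifts were not tested.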
